A study of Mus musculus with 6 samples.

Results

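Cell cycle and DNA replication mRNAs were followed across 6 ribosome profiling (Ribo-seq) libraries of mouse tissues. Ribo-seq sequences the mRNA fragments that translating ribosomes protect, so the values describe ribosome density on a coding sequence (CDS) and not the amount of mRNA. The set holds 44 genes picked by symbol, and all 44 were matched by Ensembl gene ID among the 18437 protein-coding mRNAs listed in the tables. It was divided by role into 9 genes of G1 control (D cyclins, their kinases, the CIP/KIP inhibitors and Rb1), 17 genes of G1/S entry and replication, and 18 genes of G2 and mitosis. All libraries came from wild-type (WT) C57BL/6J mice aged 4 weeks that had received no treatment, with 1 library for each label, namely heart, lung, brain, kidney, colon and small intestine. Whole tissue was lysed, so each library mixes all cell types of the organ, and the labels do not say how many mice were used. Levels are given as RPKM, reads on a CDS scaled by its length and by the reads on all CDSs, which allows levels to be compared between genes per length. Because there is 1 library for each tissue, no test between tissues was possible and no p-value was computed. In whole tissue, fewer dividing cells and less mRNA per cell cannot be told apart.

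Cells pass from G1 through DNA replication (S phase) and G2 to mitosis under cyclin-dependent kinases. D cyclins with Cdk4 or Cdk6 phosphorylate the retinoblastoma protein Rb1, which releases E2F transcription factors and with them the genes of replication, while the CIP/KIP proteins inhibit the kinases. The mitotic genes peak later, in G2, and are repressed outside the cycle by the DREAM complex through a promoter element known as the CHR (cell cycle genes homology region). Many of their promoters also hold CCAAT boxes. In young mice dividing cells are abundant in the crypts of the intestine, whereas most neurons and cardiomyocytes have left the cycle. D cyclins and the inhibitors also serve cells that do not divide.

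The labels and the tissue markers did not match in 4 of the 6 libraries. Each of 6 lists of 5 tissue markers was highest, for 5 of 5 genes, in 1 library. Brain markers were highest in the library labelled small intestine, small intestine markers in that labelled brain, kidney markers in that labelled colon, and colon markers in that labelled kidney. Heart and lung markers were highest in the libraries that carry these labels. For example, Snap25, a synaptic protein, had an RPKM of 0.761 in the library labelled brain, 13.2 in kidney, 0 in lung, 0.718 in colon, 1.98 in heart and 683 in small intestine. Sis, the sucrase-isomaltase of the small intestinal brush border, had 779 labelled brain, 10.4 kidney, 0.830 lung, 1.10 colon, 0.381 heart and 13.0 small intestine. The libraries are named by their labels throughout, and every statement about a tissue below is a statement about the library with that label.

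Reads could be recovered from the RPKM values and totalled between 4504853 and 10635031 per library. The number of mRNAs at each read number fell from low to high read numbers without a separate peak in the libraries labelled heart and small intestine, but not in the others. In the library labelled brain it fell to 15.6 mRNAs per read number at 18 reads and rose to 48.6 at 60 reads. The library labelled lung had its low point at 11 reads (18.1 mRNAs per read number) and its peak at 47 reads (64.3), and weaker peaks stood at 15 reads labelled colon and 9 reads labelled kidney. The reads at this peak are called the modal read number. Among mRNAs with a median of at least 50 reads in the other 5 libraries, 4.66% had no reads in the library labelled brain and 4.09% in lung, against 2.04% in colon, 0.798% in small intestine, 0.390% in kidney and 0.269% in heart. Of the 35 replication and mitosis members, 10 had 0 or 1 read labelled colon, 8 labelled lung, 6 labelled small intestine, 5 labelled brain and 1 each labelled heart and kidney. A 0 in these libraries is therefore given as no reads and not as absence of translation. Intervals below are 95% intervals that cover counting error only. They count reads in units of the modal read number where there is one, and are called wider intervals because such reads counted singly give narrower ones. The libraries labelled heart and small intestine have no modal read number. For ratios between these or within either, the interval given under this name counts single reads and is not wider. The cause of the peaks was not tested.

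**Figure D1:**
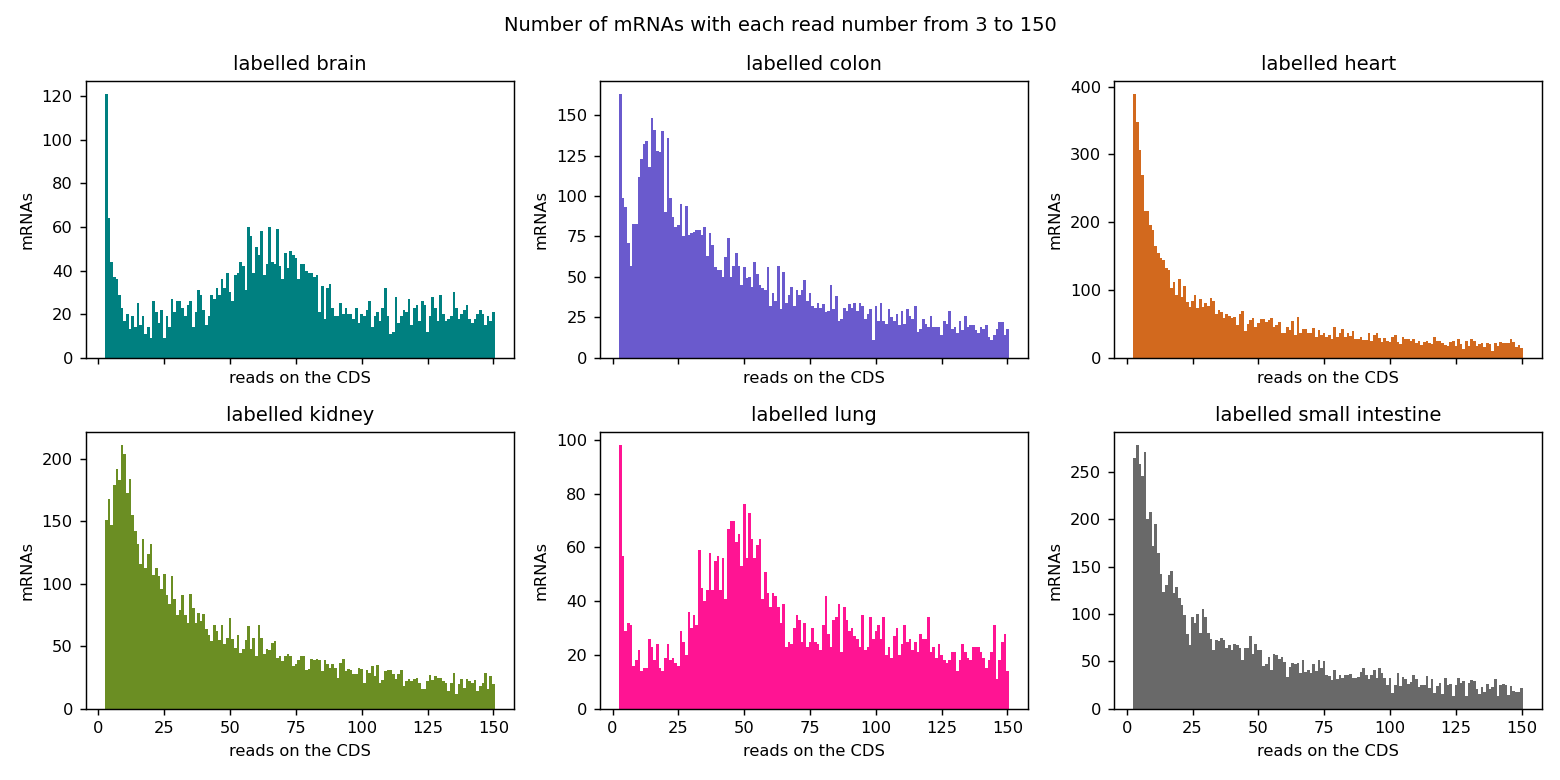
Number of mRNAs (vertical axis) at each number of reads on the CDS from 3 to 150 (horizontal axis), 1 panel for each library by its label. The libraries labelled brain and lung show a low point at 18 and 11 reads and a peak at 60 and 47 reads, whereas those labelled heart and small intestine fall from left to right.

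To ask which libraries carried ribosomes on the genes of division, the level of each mRNA in a library was set against the median of the other 5, with levels below that of 3 reads set to that of 3 reads. Of the 35 replication and mitosis members, 34 had at least 20 reads in all and entered this comparison. The exception was Bub1, with 12 reads over all libraries. In the library labelled brain, which carried small intestine markers, 25 of 34 were at least 2-fold above the others and 4 at least 2-fold below, against 23.7% and 35.9% of all 14754 mRNAs with as many reads. The library labelled kidney, with colon markers, had 20 above and 0 below, where 23.7% and 20.7% of all mRNAs fell. The opposite was seen in the library labelled small intestine, with brain markers, where 2 were above and 29 below (32.3% and 24.3% of all mRNAs), and in that labelled heart, where 1 was above and 22 below (23.2% and 23.7%). The libraries labelled lung and colon lay between, with 13 above and 9 below in lung (33.1% and 22.6%) and 10 above and 12 below in colon (25.3% and 20.2%). With a floor of 3 modal read numbers in place of 3 reads, 22 members were above in the library labelled brain, 7 above and 6 below in kidney, 31 below in heart and 32 below in small intestine. That floor raises every low level in the libraries labelled brain, colon and lung and so the median against which the libraries labelled kidney, heart and small intestine are read. By this floor alone, an mRNA below it in every library is called above labelled brain and below labelled kidney, heart and small intestine. These counts are therefore partly fixed by the floor and give no independent support to the first ones.

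The order of the libraries gave the same picture for single genes. The highest level was in the library labelled brain for 24 of the 34, where 15.5% of all mRNAs had theirs, and the lowest was in that labelled small intestine for 17, where 14.4% of all mRNAs had theirs. The libraries labelled brain and kidney were the highest pair for 14 of 34, against 7.69% of all mRNAs. Summed RPKM over the 35 members was 783 labelled brain, 449 kidney, 399 lung, 269 colon, 121 heart and 82.8 small intestine. In the libraries labelled heart, kidney and small intestine, which list the most mRNAs with reads, the comparison could be repeated without the 3 others. There 28 of 32 members were at least 2-fold above the other libraries in that labelled kidney (20.7% of all mRNAs), 1 in heart (18.7%) and 1 in small intestine (28.8%). All 33 members with reads in both libraries were higher labelled kidney than labelled heart, 27 of them by more than the wider interval under each scaling tried, with a median ratio of 5.20. Of the 35 with reads in either library 34 were higher labelled kidney, the exception being Cdk2, which had reads labelled heart and none labelled kidney. Such counts for pairs of libraries were not made over all mRNAs, so no share stands beside them. Between the libraries labelled brain and kidney, 26 of 31 were higher in brain, but only 12 by more than the wider interval, with a median ratio of 1.76. The 31 are those with reads in both, and 3 more, Tk1, E2f1 and Bub1, had reads in kidney and none in brain, so that brain was higher for 26 of 34. Without Kri1 in the totals brain was higher for 24 of the 34, and 8 exceeded the wider interval.

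**Figure D2:**
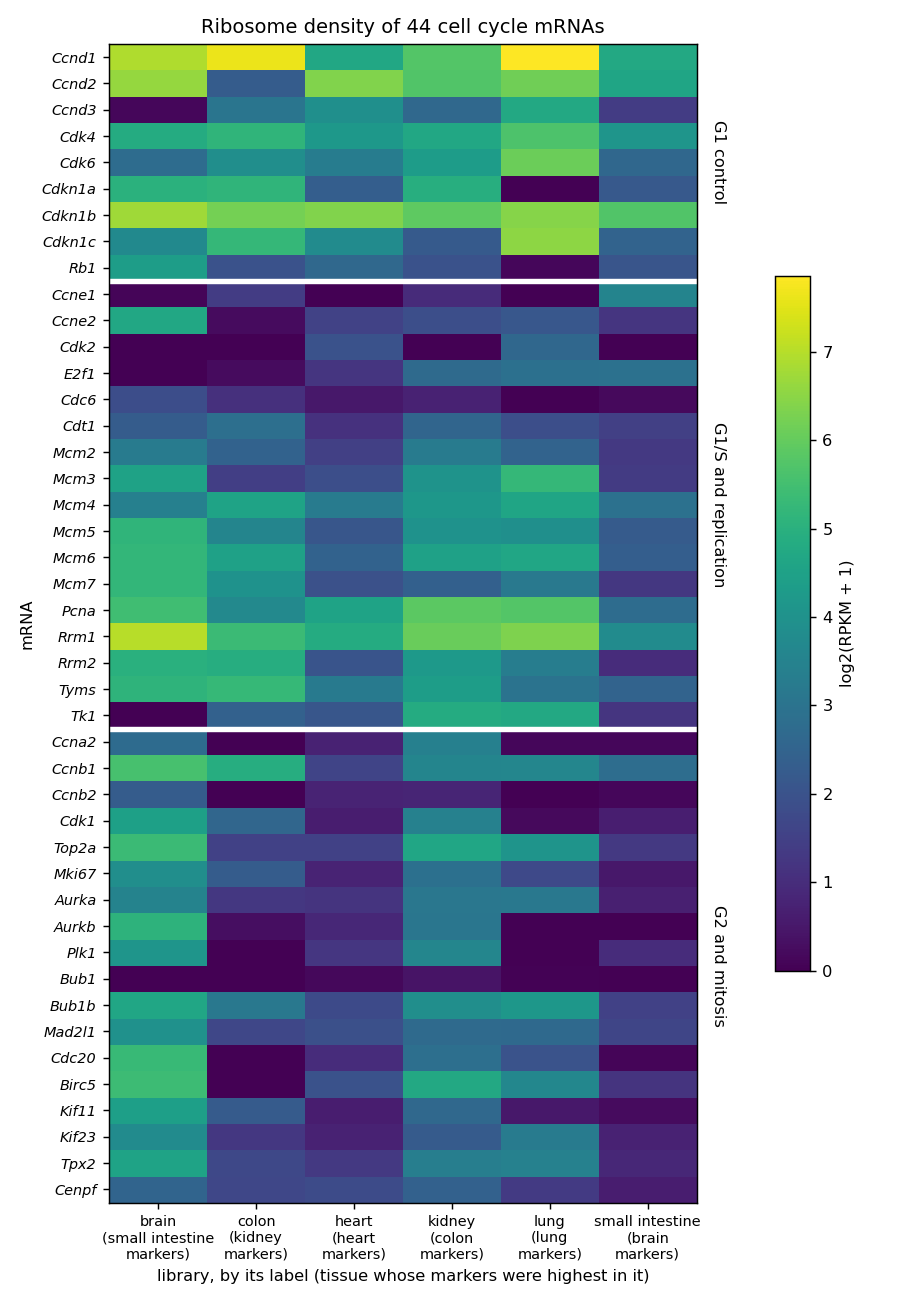
Ribosome density, as log2(RPKM + 1), of the 44 mRNAs (rows, in the order of G1 control, G1/S and replication, G2 and mitosis) in the 6 libraries (columns, by label, with the tissue whose markers were highest there in brackets). The mitosis block is brightest labelled brain and kidney and darkest labelled heart and small intestine, while Cdkn1b in the G1 block is bright in all 6.

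The mitotic genes gave the widest separation. All 17 mitosis members tested were at least 2-fold above the other libraries in the library labelled brain and 14 of 17 in that labelled kidney, while 15 of 17 were at least 2-fold below in small intestine and 11 of 17 in heart. Of all mRNAs, 23.7% were above in brain, 23.7% above in kidney, 24.3% below in small intestine and 23.7% below in heart. For lung, 7 of 17 were above and 6 below (33.1% and 22.6% of all mRNAs), and for colon 3 were above and 8 below (25.3% and 20.2%). The median log2 difference from the other libraries was 3.30 labelled brain, 2.44 kidney, 0.04 lung, -0.78 colon, -2.39 heart and -2.87 small intestine, where the median over all mRNAs was -0.48, 0.01, 0.12, 0.41, -0.11 and 0.02. Summed RPKM of the 18 members was 368 labelled brain, 163 kidney, 95.1 lung, 60.7 colon, 24.4 heart and 17.9 small intestine.

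**Figure D3:**
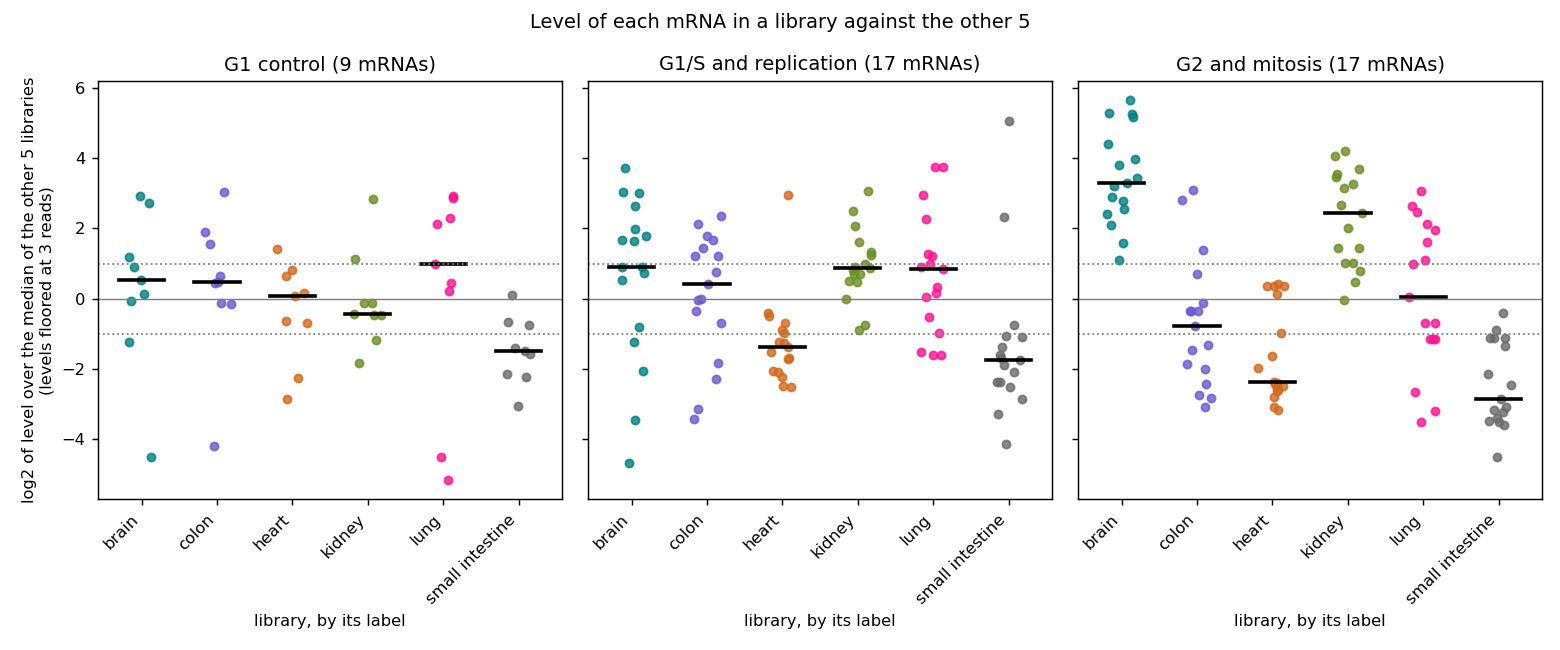
Log2 of each member's RPKM over the median of the other 5 libraries (vertical axis, levels floored at 3 reads) in each library by its label (horizontal axis), for the 9 members of G1 control, 17 of replication and 17 of mitosis tested. Points are mRNAs, bars are medians and dotted lines mark 2-fold. The mitosis medians run from 3.30 labelled brain to -2.87 labelled small intestine, and the G1 medians from 0.99 labelled lung to -1.49 labelled small intestine.

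The promoters are shown because CHR and E2F sites are known elements of mitotic and replication genes, with Cdk4 of the G1 group beside them. Their part in the levels was not tested. The RefSeq promoter table (GRCm38.p6, 250 bases before to 50 bases after the start) held 15 of the 18 mitosis members, 15 of 17 replication members and 5 of 9 G1 members. Each promoter was searched on both strands for the CHR (TTTGAA or TTCGAA), the CCAAT box (CCAAT) and an E2F site (TTTCCCGC, TTTGGCGC, TTTCGCGC or TTTGCCGC). A CHR was found for 12 of 15 mitosis members (80.0%), 2 of 15 replication members (13.3%) and 0 of 5 G1 members, against 21.7% of all 27025 genes with a promoter and 19.2% of all promoters. A CHR and a CCAAT box together were found for the same 12 mitosis members and for 8.61% of all genes. E2F sites were found for 7 of 15 replication members (46.7%) and for 1 of 15 mitosis members (6.67%), Cdk1, against 2.60% of all genes. CCAAT boxes stood in 13 mitosis, 9 replication and 2 G1 promoters and in 41.1% of all genes. The TTCGAA form reads the same on both strands, the counts are of genes with at least 1 match, and neighbouring matches can overlap. Another 50 mitotic genes gave a CHR for 30 of the 40 with a promoter (75.0%). Of another 46 replication genes 11 of 38 had a CHR (28.9%), and of another 20 G1 genes 6 of 16 (37.5%). E2F sites were found for 13 of these 38 replication genes (34.2%), 6 of the 16 G1 genes (37.5%) and 3 of the 40 mitotic genes (7.5%). In these other lists E2F sites therefore did not set replication genes apart from G1 genes. The 150 bases before the start are printed 5′ to 3′ on the strand of the gene, for 4 mitotic genes with a CHR, for Mcm6 as a replication gene with E2F sites and for Cdk4 as a G1 gene with none of the motifs. Capitals mark the motifs on either strand.
Cdk1 (chr10:69352913-69353062, minus strand): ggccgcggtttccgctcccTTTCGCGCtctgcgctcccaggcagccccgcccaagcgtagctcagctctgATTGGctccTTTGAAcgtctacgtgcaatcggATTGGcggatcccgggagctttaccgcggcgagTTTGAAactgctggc
Cdc20 (chr4:118437344-118437493, minus strand): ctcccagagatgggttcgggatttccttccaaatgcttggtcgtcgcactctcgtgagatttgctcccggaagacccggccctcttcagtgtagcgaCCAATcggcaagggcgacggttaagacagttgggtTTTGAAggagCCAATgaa
Kif11 (chr19:37376232-37376381, plus strand): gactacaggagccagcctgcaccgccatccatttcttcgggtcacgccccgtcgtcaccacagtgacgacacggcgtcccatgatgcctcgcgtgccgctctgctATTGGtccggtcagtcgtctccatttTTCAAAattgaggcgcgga
Top2a (chr11:99024190-99024339, minus strand): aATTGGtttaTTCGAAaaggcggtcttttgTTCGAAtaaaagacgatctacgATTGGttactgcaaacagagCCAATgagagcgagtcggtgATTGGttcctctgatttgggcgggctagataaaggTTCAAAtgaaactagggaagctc
Mcm6 (chr1:128359706-128359855, minus strand): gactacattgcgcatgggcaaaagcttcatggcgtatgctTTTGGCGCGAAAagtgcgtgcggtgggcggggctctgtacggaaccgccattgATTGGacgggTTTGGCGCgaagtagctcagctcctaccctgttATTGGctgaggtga
Cdk4 (chr10:127063385-127063534, plus strand): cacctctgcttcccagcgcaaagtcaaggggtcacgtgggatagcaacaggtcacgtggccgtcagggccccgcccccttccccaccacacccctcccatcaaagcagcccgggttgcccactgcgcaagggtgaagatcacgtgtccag
In Cdk1 the E2F site TTTCGCGC is followed by 2 CHRs and 2 CCAAT boxes, here as ATTGG on the printed strand. Cdc20 and Kif11 each hold 1 CHR within 20 bases of the start, as TTTGAA and as TTCAAA. Mcm6 holds a pair of overlapping E2F sites, 1 on each strand, and 1 more nearer the start. A match of letters is a description of the sequence, and binding was not measured.

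Among the mitotic kinases and cyclins, Cdk1, the kinase that drives entry into mitosis (chr10:69170976-69236595, GRCm39), had an RPKM of 21.2 in the library labelled brain, 9.92 in kidney, 0.145 in lung, 4.98 in colon, 0.549 in heart and 0.587 in small intestine. Its promoter is the first printed above. The ratio of kidney to heart was 18.1 (wider interval 5.36 to 60.9), and that of brain to small intestine 36.1 (wider interval 8.46 to 154). The library labelled lung held a single Cdk1 read. Ccnb1, cyclin B1, was the main B cyclin in every library, with 46.1 labelled brain, 10.8 kidney, 11.1 lung, 28.6 colon, 2.08 heart and 5.98 small intestine. It was the mitosis member with the highest level in the libraries labelled brain, colon and small intestine. Ccnb2, the other B cyclin, reached only 3.86 labelled brain and was below 1 in the other 5 libraries, with no reads labelled colon and lung. Ccna2, cyclin A2 of S phase and G2, had 5.72 labelled brain, 9.79 kidney, 0.102 lung, 0 colon, 0.676 heart and 0.103 small intestine. It stood 14.5-fold (wider interval 5.56 to 37.7) higher labelled kidney than labelled heart and did not differ beyond the wider interval between the libraries labelled brain and kidney.

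Plk1 and the Aurora kinases organize the spindle and the separation of chromosomes. Aurkb had 32.6 labelled brain, 7.52 kidney, 0 lung, 0.214 colon, 0.827 heart and 0 small intestine, so that reads on it lay almost entirely in the libraries labelled brain and kidney. The difference between these was 4.34-fold (wider interval 1.43 to 13.1). Plk1 was also highest in this pair, with 16.1 labelled brain, 11.2 kidney, 0 lung, 0 colon, 1.35 heart and 1.01 small intestine. Aurka had 10.5 labelled brain, 7.69 kidney, 7.86 lung, 1.42 colon, 1.27 heart and 0.627 small intestine, and its levels labelled brain, kidney and lung did not differ beyond the wider intervals. Birc5, survivin, which acts with Aurkb in the chromosomal passenger complex, had 40.7 labelled brain, 26.1 kidney, 11.4 lung, 0 colon, 2.91 heart and 1.25 small intestine.

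Cdc20, the activator of the anaphase-promoting complex (chr4:118290098-118294610, GRCm39), showed one of the steepest gradients. Its RPKM was 38.2 in the library labelled brain, 6.25 in kidney, 3.02 in lung, 0 in colon, 0.980 in heart and 0.0874 in small intestine. The ratio of brain to kidney was 6.11 (wider interval 2.41 to 15.5), and the ratio of kidney to heart was 6.38 (wider interval 2.60 to 15.7). Bub1b, a checkpoint kinase that holds Cdc20 in check, had 24.0 labelled brain, 13.7 kidney, 17.1 lung, 7.95 colon, 2.40 heart and 1.87 small intestine. Mad2l1, another checkpoint protein, had 14.7 labelled brain, 5.57 kidney, 5.47 lung, 2.17 colon, 2.78 heart and 2.13 small intestine. Its 2.00-fold excess labelled kidney over heart lay within the wider interval (0.565 to 7.11). Bub1, the remaining checkpoint kinase, had 8 reads labelled kidney, 3 heart and 1 lung and none elsewhere, which is too few to order.

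Among the spindle motors and their partners, Kif11, Kif23 and Tpx2 were highest in the library labelled brain, while the order of the others varied. Kif11, the kinesin that pushes the spindle poles apart, had 20.7 labelled brain, 5.26 kidney, 0.410 lung, 3.80 colon, 0.542 heart and 0.166 small intestine, a difference of 125-fold (wider interval 40.1 to 389) between the libraries labelled brain and small intestine. Kif23, the kinesin of the midbody, had 13.0 labelled brain, 3.83 kidney, 8.73 lung, 1.40 colon, 0.684 heart and 0.686 small intestine. Tpx2, which activates Aurka on the spindle, had 22.6 labelled brain, 9.20 kidney, 10.1 lung, 2.28 colon, 1.48 heart and 0.819 small intestine. In the library labelled lung, Kif23 and Tpx2 stood near the levels of those labelled brain and kidney, whereas Kif11 had 10 reads. Cenpf, a kinetochore protein with a long CDS, had 4.75 labelled brain, 4.46 kidney, 1.51 lung, 2.22 colon, 2.45 heart and 0.553 small intestine. The ratio of heart to small intestine was 4.43 (wider interval 3.12 to 6.28).

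Mki67 and Top2a rest on many reads because their CDSs are long. Mki67, the marker of cycling cells known as Ki-67 (chr7:135291513-135318299, GRCm39), had an RPKM of 13.7 in the library labelled brain, 6.42 in kidney, 2.35 in lung, 3.84 in colon, 0.731 in heart and 0.412 in small intestine, from 1392 reads labelled brain to 30 labelled small intestine. Differences among the 4 libraries labelled brain, kidney, heart and small intestine exceeded the wider interval, but that of heart to small intestine did not without Kri1 in the totals, where it was 1.54 (0.990 to 2.40). The ratio of brain to kidney was 2.14 (wider interval 1.31 to 3.49), the ratio of kidney to heart was 8.78 (wider interval 6.03 to 12.8), and the ratio of heart to small intestine was 1.77 (wider interval 1.14 to 2.76). Top2a, the topoisomerase that untangles sister chromatids (chr11:98883769-98915062, GRCm39), had 39.9 labelled brain, 24.1 kidney, 15.8 lung, 1.84 colon, 1.87 heart and 1.48 small intestine. The ratio of lung to heart was 8.47 (wider interval 4.58 to 15.7), while the levels labelled colon and heart were 1.84 and 1.87.

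The replication genes had their lowest medians in the same libraries as the mitotic genes, labelled heart and small intestine, with a smaller spread. Of 17 members, 1 was at least 2-fold above and 11 below in the library labelled heart (23.2% and 23.7% of all mRNAs), and 2 above and 14 below in small intestine (32.3% and 24.3%). In that labelled brain 8 were above and 4 below (23.7% and 35.9%), and in kidney 6 and 0 (23.7% and 20.7%). For lung 6 were above and 3 below (33.1% and 22.6%) and for colon 7 and 4 (25.3% and 20.2%), of which the 6 above in lung and the 4 below in colon are near the shares of all mRNAs. The median log2 difference was 0.91 labelled brain, 0.88 kidney, 0.83 lung, 0.42 colon, -1.39 heart and -1.76 small intestine. The libraries labelled colon and lung, which lay lower for mitosis, stood closer to those labelled brain and kidney here. Summed RPKM of replication over that of mitosis members can be read from 414 and 368 labelled brain, 286 and 163 kidney, 304 and 95.1 lung, 209 and 60.7 colon, 96.8 and 24.4 heart, and 64.9 and 17.9 small intestine.

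The 6 subunits of the MCM helicase, which unwinds DNA at the fork as a ring with 1 copy of each, summed to an RPKM of 146 labelled brain, 111 lung, 81.8 kidney, 76.3 colon, 23.8 heart and 18.8 small intestine. Mcm2 had 8.63 labelled brain, 8.56 kidney, 4.72 lung, 4.58 colon, 1.80 heart and 1.45 small intestine. Mcm6, whose promoter with E2F sites is printed above, had 35.6 labelled brain, 21.5 kidney, 24.2 lung, 21.5 colon, 4.56 heart and 4.09 small intestine, and Mcm5 had 34.5 labelled brain, 15.2 kidney, 13.9 lung, 11.0 colon, 3.33 heart and 3.74 small intestine. For these 3 subunits the level labelled brain was the highest, for Mcm2 by 8.63 against 8.56 labelled kidney, and those labelled heart and small intestine were the lowest. Mcm7 was high labelled brain and low labelled kidney, with 35.7 labelled brain, 4.34 kidney, 8.10 lung, 14.9 colon, 2.83 heart and 1.39 small intestine, a difference of 8.22-fold (wider interval 3.42 to 19.7). Mcm3 was highest labelled lung, with 21.8 labelled brain, 15.3 kidney, 36.6 lung, 1.73 colon, 2.71 heart and 1.56 small intestine. Mcm4 was the most even subunit, with 9.71 labelled brain, 17.0 kidney, 23.4 lung, 22.6 colon, 8.60 heart and 6.58 small intestine. Within a library the ratio of the highest to the lowest subunit ran from 4.13 labelled brain to 13.0 labelled colon, and the highest subunit was Mcm7 labelled brain, Mcm4 colon, heart and small intestine, Mcm6 kidney and Mcm3 lung. Reads at these levels amount to few modal read numbers in the libraries labelled brain, colon and lung.

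**Figure D4:**
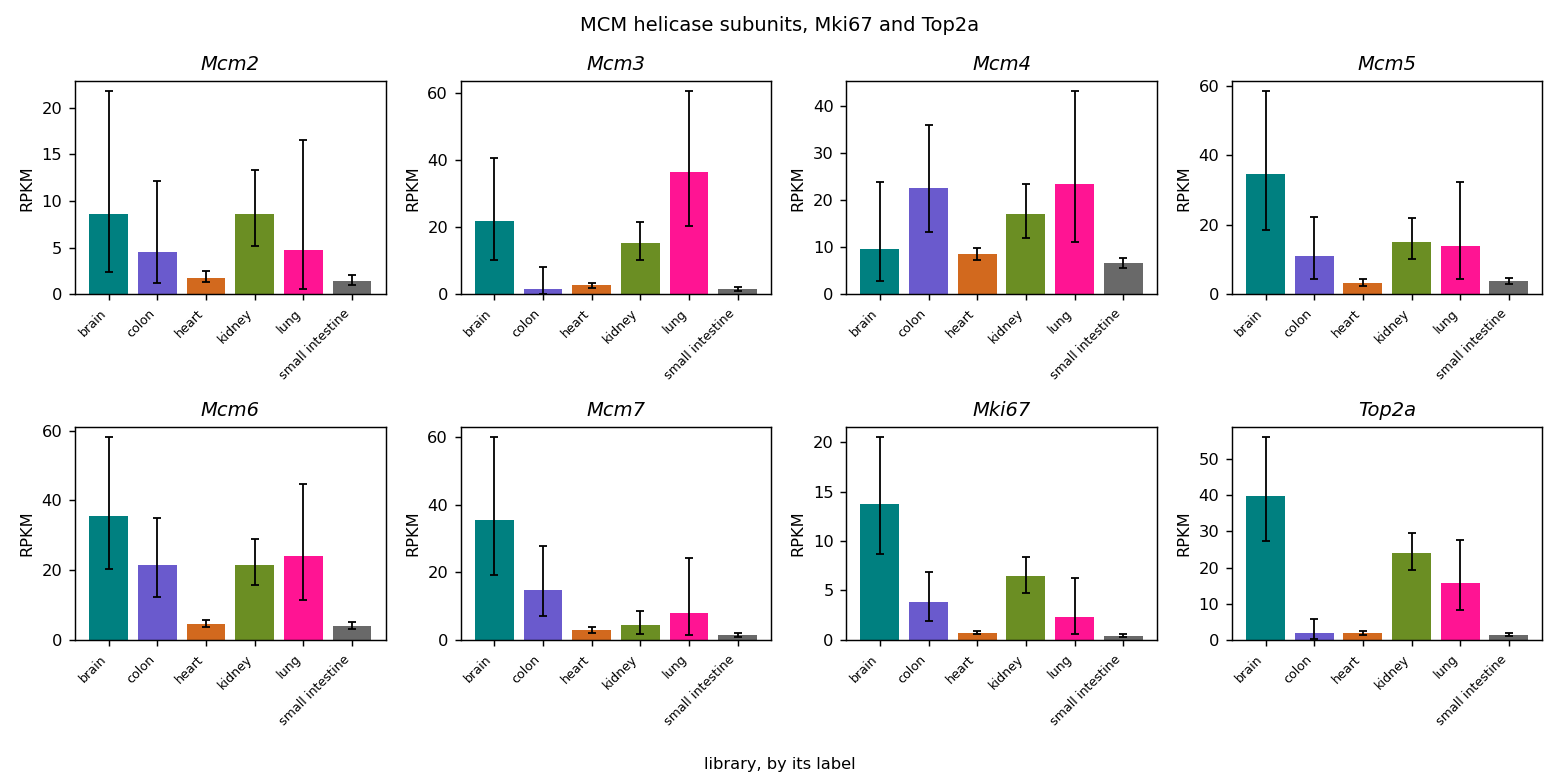
RPKM (vertical axes) of the 6 MCM subunits, Mki67 and Top2a in each library by its label (horizontal axes), with 95% intervals that count reads in units of the modal read number where there is one. Bars labelled heart and small intestine are the lowest for Mcm2, Mcm5, Mcm6 and Mcm7, and the intervals are wide labelled brain, colon and lung.

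Origin licensing and the start of S phase involve genes with few reads. Cdt1, which loads the MCM ring, had 3.88 labelled brain, 4.97 kidney, 2.71 lung, 6.24 colon, 1.17 heart and 1.80 small intestine, and Cdc6, its partner, had 2.61 labelled brain, 0.672 kidney, 0 lung, 1.13 colon, 0.415 heart and 0.148 small intestine. Pcna, the sliding clamp of DNA polymerase, had 42.4 labelled brain, 57.4 kidney, 52.9 lung, 11.9 colon, 22.8 heart and 5.85 small intestine. Its ratio to the level labelled small intestine was 9.82 (wider interval 6.20 to 15.6) in kidney and 3.90 (wider interval 2.69 to 5.64) in heart. Cdk2, the kinase of G1/S, had reads only labelled heart (2.94, 25 reads) and lung (5.11, 41 reads), and the 4 others had none, for which 3 reads would be an RPKM of 0.272 labelled brain, 0.642 colon, 0.381 kidney and 0.378 small intestine. In the libraries labelled brain and colon, 3 modal read numbers would lie above both detected levels, and labelled kidney above that of heart. Levels as high as those detected are therefore not excluded labelled brain and colon.

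Rrm1, the large subunit of ribonucleotide reductase, which makes deoxyribonucleotides (chr7:102090890-102119709, GRCm39), was the replication member with the highest level in every library. Its RPKM was 129 in the library labelled brain, 66.0 in kidney, 80.6 in lung, 40.4 in colon, 27.4 in heart and 12.8 in small intestine. The ratio of brain to kidney was 1.96 (wider interval 1.43 to 2.69), the ratio of kidney to heart was 2.41 (wider interval 1.99 to 2.91), and the ratio of heart to small intestine was 2.15 (wider interval 1.84 to 2.50). Rrm2, the small subunit, whose protein is limited to S phase, had 31.0 labelled brain, 18.0 kidney, 9.07 lung, 29.0 colon, 3.13 heart and 1.01 small intestine. The ratio of Rrm1 to Rrm2 within a library was 4.17 labelled brain, 3.66 kidney and 1.39 colon, and it was 8.75 heart, 8.89 lung and 12.7 small intestine. The wider intervals of this ratio were 2.23 to 6.01 labelled kidney, 6.06 to 12.6 heart and 6.52 to 24.7 small intestine. They were 1.84 to 9.44 labelled brain, 0.681 to 2.84 colon and 1.94 to 40.8 lung. Those labelled brain and lung overlapped the interval of every other library. Tyms, thymidylate synthase, had 33.6 labelled brain, 19.9 kidney, 6.88 lung, 37.4 colon, 8.49 heart and 4.69 small intestine, and Tk1, thymidine kinase, 0 labelled brain, 27.7 kidney, 25.9 lung, 4.45 colon, 3.32 heart and 1.31 small intestine. Tk1 was 8.35-fold (wider interval 4.31 to 16.2) higher labelled kidney than heart, and had no reads in the library labelled brain, where 3 modal read numbers would be an RPKM of 24.2.

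A few G1/S genes departed from the order of the others. Ccne1, cyclin E1, was highest in the library labelled small intestine, which held the lowest level of 17 other members, with 0.0768 labelled brain, 0.970 kidney, 0 lung, 1.63 colon, 0 heart and 10.6 small intestine. It rested on 99 reads there, and the level exceeded that labelled kidney by more than the wider interval, the ratio of kidney to small intestine being 0.0916 (wider interval 0.0128 to 0.657). Ccne2, cyclin E2, was instead highest labelled brain, with 25.4 labelled brain, 2.72 kidney, 3.42 lung, 0.183 colon, 1.92 heart and 1.30 small intestine, a difference of 9.36-fold (wider interval 2.21 to 39.7) from kidney. Cyclin E1 was 8.17 times cyclin E2 labelled small intestine (wider interval 4.49 to 14.9). E2f1, the transcription factor of G1/S genes, had 0 labelled brain, 5.62 kidney, 6.42 lung, 0.172 colon, 1.33 heart and 6.69 small intestine. The level labelled small intestine did not differ from that labelled kidney beyond the wider interval, and that labelled heart was lower than small intestine, with a ratio of 0.198 (wider interval 0.111 to 0.353).

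The G1 members showed no such excess above the other libraries. Of the 9 members, 4 were at least 2-fold above in the library labelled lung (33.1% of all mRNAs), 3 each in brain (23.7%) and colon (25.3%), 2 in kidney (23.7%) and 1 in heart (23.2%), counts which mostly lie near the shares of all mRNAs. None was above in small intestine (32.3%), where 6 were below (24.3%). Summed RPKM was 622 labelled lung, 420 brain, 404 colon, 252 heart, 251 kidney and 135 small intestine. The libraries labelled heart and kidney, at 252 and 251 here, had a summed mitotic RPKM of 24.4 and 163. As a description over the 6 libraries, Spearman's rho between a member and the summed mitosis members, leaving out the member itself, had a median of 0.83 over the 18 mitosis members, 0.77 over the 17 replication members and 0.37 over the 9 G1 members. It was over 0.7 for 12, 9 and 0 of them, a count that was not made over all mRNAs. The mitosis members were set against the rest of their own group. The points of each correlation are the same 6 libraries and share their depth and scaling. The lowest values belonged to E2f1 (-0.54), Ccne1 (-0.32), Ccnd3 (-0.26), Cdk2 (-0.14), Cdkn1c (-0.09) and Rb1 (-0.03).

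Among the D cyclins, the partners of Cdk4 and Cdk6, Ccnd1 (chr7:144483668-144493662, GRCm39) had an RPKM of 121 in the library labelled brain, 53.3 in kidney, 231 in lung, 198 in colon, 25.4 in heart and 25.6 in small intestine. The libraries labelled lung and colon did not differ beyond the wider interval (ratio 1.17, 0.758 to 1.80), and the ratio of lung to heart was 9.10 (wider interval 6.30 to 13.1). Ccnd2 had 96.5 labelled brain, 52.2 kidney, 71.0 lung, 3.84 colon, 81.9 heart and 23.5 small intestine. In the library labelled heart Ccnd2 made up 67.5% of the summed D cyclin RPKM and Ccnd1 21.0%, whereas Ccnd1 made up 94.6% labelled colon, 70.4% lung, 55.6% brain, 50.4% small intestine and 48.2% kidney. Ccnd2 was lower labelled kidney than heart, with a ratio of 0.637 (wider interval 0.459 to 0.884) on the deposited totals. Without Kri1, an mRNA that held 22.1% of the reads labelled kidney, in the totals the ratio was 0.809 (wider interval 0.583 to 1.12), and without the top 100 mRNAs of any library 0.724 (0.522 to 1.005), so this difference rests on the scaling. Ccnd3 had 0.107 labelled brain, 5.27 kidney, 26.0 lung, 7.35 colon, 14.0 heart and 1.64 small intestine, and the ratio of heart to small intestine was 8.49 (wider interval 4.56 to 15.8).

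Cdk4 had 27.4 labelled brain, 25.1 kidney, 49.95 lung, 34.4 colon, 17.1 heart and 16.3 small intestine. In no library was it 2-fold above or below the median of the others, though it came close labelled lung (1.99-fold). The libraries labelled kidney and heart did not differ beyond the wider interval (0.910 to 2.37 around 1.47). Without Kri1 in the totals, however, their ratio was 1.87 (1.16 to 3.02), and without the top 100 mRNAs 1.67 (1.03 to 2.70). Cdk6 was highest labelled lung, with 5.86 labelled brain, 19.3 kidney, 67.6 lung, 13.8 colon, 8.87 heart and 5.22 small intestine, a difference of 7.62-fold (wider interval 4.02 to 14.4) from heart and 3.51-fold (wider interval 1.62 to 7.58) from kidney. The library labelled lung was the only one in which Cdk6 exceeded Cdk4, and that ratio of Cdk4 to Cdk6, 0.739, had a wider interval from 0.291 to 1.88.

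Cdkn1b, the inhibitor p27, was the most even of the 3 CIP/KIP genes, with 106 labelled brain, 59.6 kidney, 85.4 lung, 73.2 colon, 82.1 heart and 51.8 small intestine. It was the largest of the 3 in every library except that labelled lung, with between 51.0% labelled colon and 86.3% labelled small intestine of their summed RPKM. Cdkn1c, the imprinted inhibitor p57, made up 51.5% labelled lung, with 12.3 labelled brain, 3.66 kidney, 90.7 lung, 36.4 colon, 13.0 heart and 4.64 small intestine, and the ratio of lung to heart was 6.98 (wider interval 4.11 to 11.9). On the deposited totals it was lower labelled kidney than heart beyond the wider interval, with a ratio of 0.282 (wider interval 0.0931 to 0.853), but not without Kri1 in the totals, where the ratio was 0.358 (0.118 to 1.08). Cdkn1a, the p53 target p21, had 31.1 labelled brain, 29.6 kidney, 0 lung, 34.0 colon, 4.10 heart and 3.57 small intestine, so the ratio of kidney to heart was 7.22 (wider interval 3.41 to 15.3). It had no reads labelled lung, where 3 modal read numbers would be 38.2. Rb1 was highest labelled brain, with 19.7 labelled brain, 2.96 kidney, 0.0936 lung, 2.97 colon, 5.26 heart and 3.22 small intestine, a difference of 6.65-fold (wider interval 2.50 to 17.7) from kidney. Its level labelled lung came from 2 reads.

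**Figure D5:**
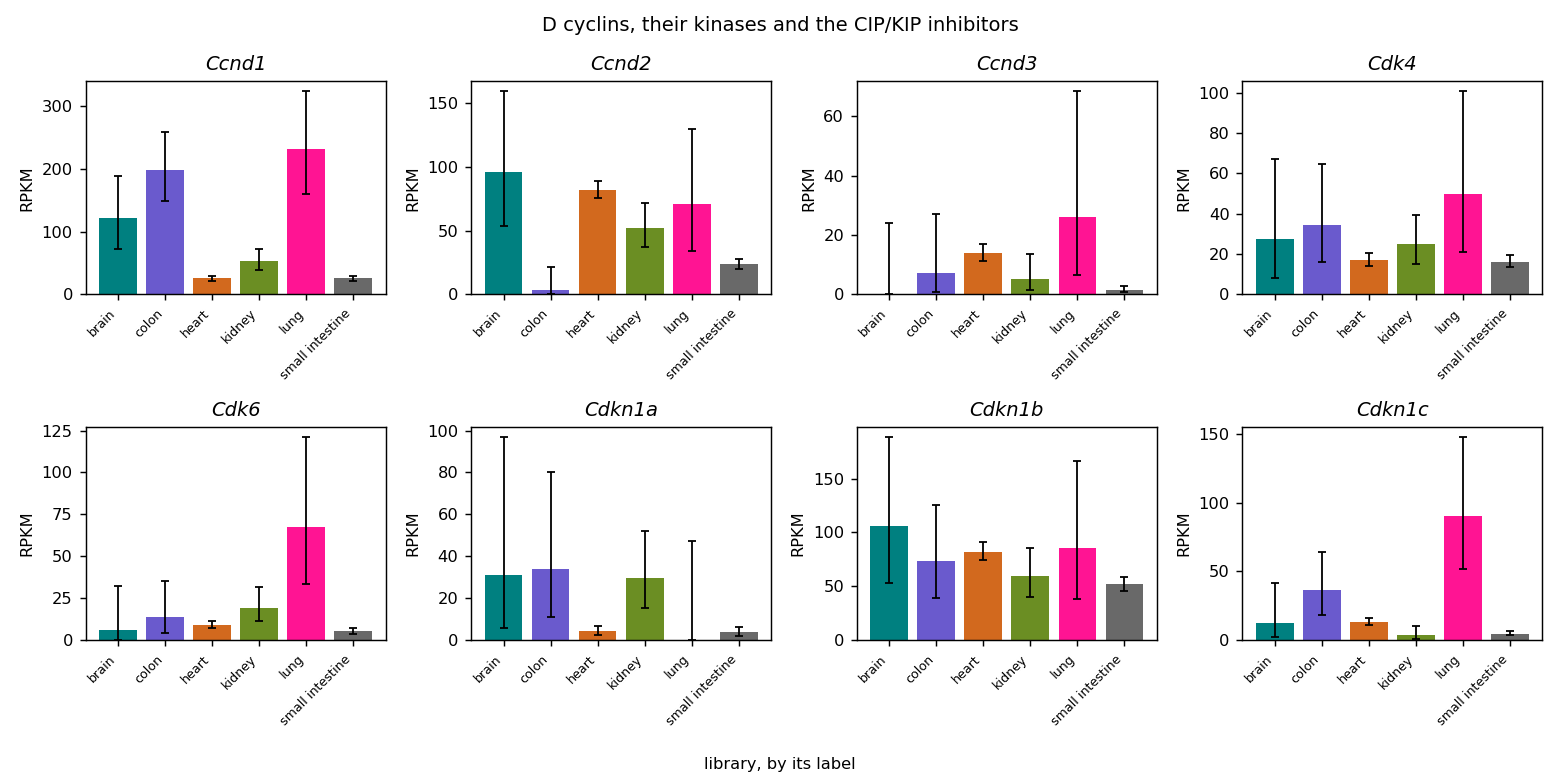
RPKM (vertical axes) of the 3 D cyclins, Cdk4, Cdk6 and the 3 CIP/KIP inhibitors in each library by its label (horizontal axes), with 95% intervals that count reads in units of the modal read number where there is one. Ccnd1, Cdk6 and Cdkn1c are highest labelled lung, Ccnd2 is as high labelled heart (81.9) as labelled lung (71.0), and Cdkn1b lies between 51.8 and 106 in all 6 libraries.

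Other genes of the pathway were read from lists of 50 mitotic, 46 replication and 20 G1 genes that are not among the 44. Of all mRNAs, 23.7% were above and 35.9% below in the library labelled brain, 23.7% and 20.7% in kidney, 33.1% and 22.6% in lung, 25.3% and 20.2% in colon, 23.2% and 23.7% in heart, and 32.3% and 24.3% in small intestine. Of 48 mitotic genes with at least 20 reads, 38 were at least 2-fold above and 2 below labelled brain, 36 and 2 kidney, 13 and 16 lung, 10 and 14 colon, 1 and 32 heart, and 1 and 30 small intestine. For 43 replication genes the counts were 21 above and 11 below labelled brain, 14 and 8 lung, 12 and 14 colon, 10 and 5 kidney, 4 and 9 heart, and 5 and 15 small intestine. Of these, the 10 above in kidney, 14 above and 8 below in lung, 12 above in colon and 9 below in heart lie near the shares of all mRNAs. The excess of replication members below labelled heart, 11 of 17, was thus not seen in this list. For 19 G1 genes the counts were 8 above and 5 below labelled brain, 4 and 2 kidney, 4 and 3 lung, 4 and 3 colon, 6 and 8 heart, and 4 and 6 small intestine, of which those labelled kidney, lung and colon lie near or below the shares of all mRNAs. The highest mean level among the mitotic genes belonged to Cks2, a subunit of Cdk complexes, with 387 labelled brain, 410.1 kidney, 55.7 lung, 543 colon, 18.6 heart and 26.5 small intestine. Spc25, of the kinetochore, departed from the rest, with 33.8 labelled brain, 6.81 kidney, 2.67 lung, 219 colon, 0.721 heart and 4.05 small intestine, and Ncapd2, of condensin, had 43.6 labelled brain, 24.3 kidney, 18.6 lung, 7.92 colon, 9.01 heart and 5.23 small intestine. Among the replication genes, Slbp, which binds histone mRNA, had 79.8 labelled brain, 33.9 kidney, 48.8 lung, 125 colon, 55.7 heart and 59.5 small intestine, and Dnmt1, the maintenance DNA methyltransferase, 32.8 labelled brain, 19.8 kidney, 27.1 lung, 16.4 colon, 6.26 heart and 12.0 small intestine. Dut, which keeps uracil out of DNA, had 59.2 labelled brain, 29.7 kidney, 41.6 lung, 24.4 colon, 40.1 heart and 29.0 small intestine. Among the G1 genes, Ccng1, a p53 target, was highest labelled heart, with 27.6 labelled brain, 31.2 kidney, 18.3 lung, 35.5 colon, 304 heart and 15.7 small intestine. Rbl1, the Rb1 relative p107, had 91.0 labelled brain, 35.1 kidney, 35.9 lung, 46.8 colon, 6.02 heart and 1.72 small intestine. Like the mitotic sums it was highest labelled brain and lowest labelled heart and small intestine, but it was higher labelled colon than kidney. Lin54, the subunit of the DREAM complex that binds the CHR, had 39.8 labelled brain, 22.2 kidney, 17.3 lung, 44.4 colon, 11.6 heart and 14.8 small intestine.

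Markers of cell types that divide or that could be mixed into the tissue also differed between libraries. The 5 crypt markers summed to an RPKM of 305 labelled brain, of which Olfm4 gave 252, and to 72.8 heart, 48.9 kidney, 41.8 colon, 19.6 small intestine and 12.3 lung, with Ascl2 at 0 in every library except that labelled small intestine. Of the 5, 2 were highest labelled brain and 1 each labelled heart, kidney and small intestine. The 7 lymphocyte markers were all highest labelled lung, summing to 230 there and to 85.2 brain, 19.3 kidney, 10.5 heart, 3.25 colon and 3.25 small intestine. Cd3e and Ms4a1 were at 0 in 4 and 5 of the libraries. The 5 endothelial markers summed to 2170 labelled lung and to between 26.3 and 455 elsewhere, and the 5 erythroid markers to 108 lung and 80.7 colon, with between 1.08 and 29.0 elsewhere and Klf1 at 0 except labelled kidney. The 6 neural progenitor and oligodendrocyte precursor markers had their highest sum, 492, labelled lung, with Sox2 and Dcx at 0 there. They summed to 173 labelled small intestine, with all 6 detected, and to between 101 and 150 elsewhere. Of the 6, 3 were highest labelled small intestine, 2 lung and 1 colon. The part of these cell types in the levels of the 44 mRNAs was not tested. In the library labelled kidney, 22.1% of all reads lay on 1 mRNA, Kri1, and 14.1% labelled small intestine, against 0.400% to 6.79% elsewhere, which lowers the RPKM of all other mRNAs in that library without changing their order.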

How the data were processed

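Ribo-seq of mouse tissues at 4 weeks was used, with 1 library for each of 6 labels (heart, lung, brain, kidney, colon, small intestine), and macrophage libraries were not used here. The authors deposited an RPKM value for each mRNA in a table per library, whose row names give the transcript, the gene and the limits of the CDS. Per the labels, Cutadapt, STAR and GRCm39 were used. The study's methods, written for macrophages and taken to hold here, count reads against 1 mRNA per gene, that with the longest CDS, and leave out multi-mapped reads, which can lower genes with near-identical copies.

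Reads were recovered from RPKM and CDS length, and came out whole for 100% of the values (tolerance 0.001). An mRNA not listed was taken as 0 reads. With 1 library per tissue no test was run. Levels carry exact Poisson and ratios exact binomial 95% intervals from single reads. The wider intervals use reads divided by the modal read number where there is one. For ratios the wider intervals are a normal approximation on the log scale, which is rough where there are few modal read numbers. PCR copies cannot be removed without molecular identifiers, so the intervals cover counting error only. Calls of 2-fold use mRNAs with at least 20 reads over the 6 libraries, with levels floored at 3 reads.

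The members, the other lists and the markers were chosen with earlier results of these data known. All 44 members are named, and from each list of other genes the 3 with the highest mean RPKM. The modal read numbers, the intervals from them and the correlations with the summed mitosis members were added after the values were seen. Recovery of reads, calls and modal read numbers were tested on simulated data. Alternatives were 9 set beforehand and 2 added for the counts. Promoters and their motifs come from RefSeq (GRCm38.p6), and gene coordinates from GENCODE release M39 (GRCm39). Python 3.11.15 with numpy 2.4.6, pandas 2.3.3, scipy 1.17.1 and matplotlib 3.10.9 was used.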

Additional observations from a re-analysis of the deposited data

How the results depend on the processing

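The counts of the 34 replication and mitosis members at least 2-fold above or below the other libraries, and of those highest or lowest in each library, were recomputed under 9 alternatives set beforehand and 2 chosen after seeing the data. Of 180 planned values 158 stayed within 1.5 times the first count. Thinning to the lowest total gave 2 below labelled brain, 3 above heart, 1 below kidney, and 1 highest in small intestine and 2 lowest in colon. With RPKM + 1, 2 were below labelled brain and 4 below lung. With the geometric mean as reference 1 was below labelled kidney. At 4-fold, 4 were above labelled colon, 13 kidney and 8 lung, and 14 were below heart, 18 small intestine and 3 lung. With at least 100 reads, 0 were above labelled heart and 1 was lowest in lung. The number highest in kidney was 5 without Kri1 in the totals, 7 without the top 100 mRNAs of any library and 5 with median-of-ratios size factors. Without the top 100 mRNAs, 1 was highest in small intestine and 2 lowest in heart, and median-of-ratios size factors gave 7 lowest in colon. The floor of 3 modal read numbers gave 0 below labelled brain, 4 below colon, 0 above heart, 7 above and 6 below kidney, 0 below lung and 0 above small intestine, and it changes the levels of the libraries with high modal read numbers by construction. Among the libraries labelled heart, kidney and small intestine alone, 2 were below in kidney, 1 was above in small intestine, 1 was highest in heart, 29 were highest in kidney and 7 lowest in heart, where fewer libraries compete by construction. The cause of the other shifts was not tested. Leaving Kri1 out of the totals moved all mRNAs by 0.30 (log2) labelled kidney and 0.15 small intestine, leaving out the top 100 by 0.38 kidney, 0.19 heart and -0.24 lung, and median-of-ratios size factors by -0.51 labelled lung, -0.19 colon, -0.13 brain, 0.13 heart, 0.13 kidney and 0.16 small intestine. Of 42 ratios between libraries of single mRNAs, recomputed with these scalings after seeing the data, 38 stayed on their side of the wider interval without Kri1, 40 without the top 100 and 42 with median-of-ratios size factors. The exceptions, Mki67, Ccnd2, Cdkn1c and Cdk4, are given with their values above. No paired analysis was possible because each label has 1 library. Depth limits genes with few reads, and levels labelled brain, colon and lung rest on fewer modal read numbers than reads.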
